A study of Arabidopsis thaliana with 8 samples.

Results

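The aldehyde dehydrogenases described here are 8 probe sets of the Affymetrix ATH1 array, each of which the probe table assigns to exactly 1 gene. They were taken by probe set from the 22746 on the array that are not controls: ALDH10A9 (AT3G48170), ALDH3F1 (AT4G36250), ALDH22A1 (AT3G66658), ALDH2C4 (AT3G24503), ALDH10A8 (AT1G74920), ALDH7B4 (AT1G54100), ALDH6B2 (AT2G14170) and ALDH11A3 (AT2G24270). All 8 were among the 13647 probe sets tested, which had a mean signal over the arrays above 33.3, the 40th percentile. A list of 8 further ALDH genes of Arabidopsis was drawn up. For 0 of them was there a probe set matched to exactly 1 gene, and they were not analysed here. Probe sets assigned to several genes were not searched for them. The plants were wild-type Arabidopsis thaliana of the Col-0 strain, grown for 10 days in sterile liquid medium under continuous light with shaking. The treatment was potassium nitrate at 250 µM for 20 min, and potassium chloride (KCl) at the same concentration served as its control. The groups were roots after nitrate, roots in KCl, shoots after nitrate and shoots in KCl, each with 2 samples and so 8 arrays in all. Whether samples within a group were grown in separate beakers is not stated, so the p-values reflect the spread between these samples only, and that spread may be technical.

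Aldehyde dehydrogenases oxidise reactive aldehydes to carboxylic acids with NAD or NADP as the acceptor. Plants use them both to remove aldehydes formed under drought, salt and oxidative stress and as ordinary steps of metabolism. Among these members, ALDH11A3 is the non-phosphorylating glyceraldehyde 3-phosphate dehydrogenase of the cytosol, which bypasses a step of glycolysis and yields NADPH. ALDH2C4 oxidises sinapaldehyde and coniferaldehyde to sinapic and ferulic acid, and ALDH6B2 is the methylmalonate semialdehyde dehydrogenase of mitochondrial valine breakdown. ALDH10A8 and ALDH10A9 oxidise betaine aldehyde and aminoaldehydes from polyamine breakdown. ALDH7B4 belongs to the antiquitin family and is known as a stress-induced member, ALDH3F1 is a class 3 enzyme, and ALDH22A1 stands in a plant family of its own whose substrate is not established.

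Signals are MAS5 intensities on a linear scale, already scaled alike on every array, and the number of arrays limits the precision. Median signals lay between 42.3 and 49.9. The organ labels were checked against markers: 3 of 3 measured shoot markers were lower in roots and 4 of 5 measured root markers higher, both after nitrate and in KCl, and PYK10 was the marker that did not pass. Photosystem I subunit PSAN, for example, had 28.1 to 46.5 on root arrays against 1146 to 1683 on shoot arrays. Arrays of the same group also differed by the replicate number in their titles. In shoots ICL (isocitrate lyase, a glyoxylate cycle enzyme) reached 111 after nitrate and 63.2 in KCl on the arrays numbered 2, against 2572 and 3049 with the number 1. Over all tested probe sets, the SD of the log2 difference within a pair of arrays was 0.29 and 0.30 in roots after nitrate and in KCl, and 0.47 and 0.50 in shoots.

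**Figure D1:**
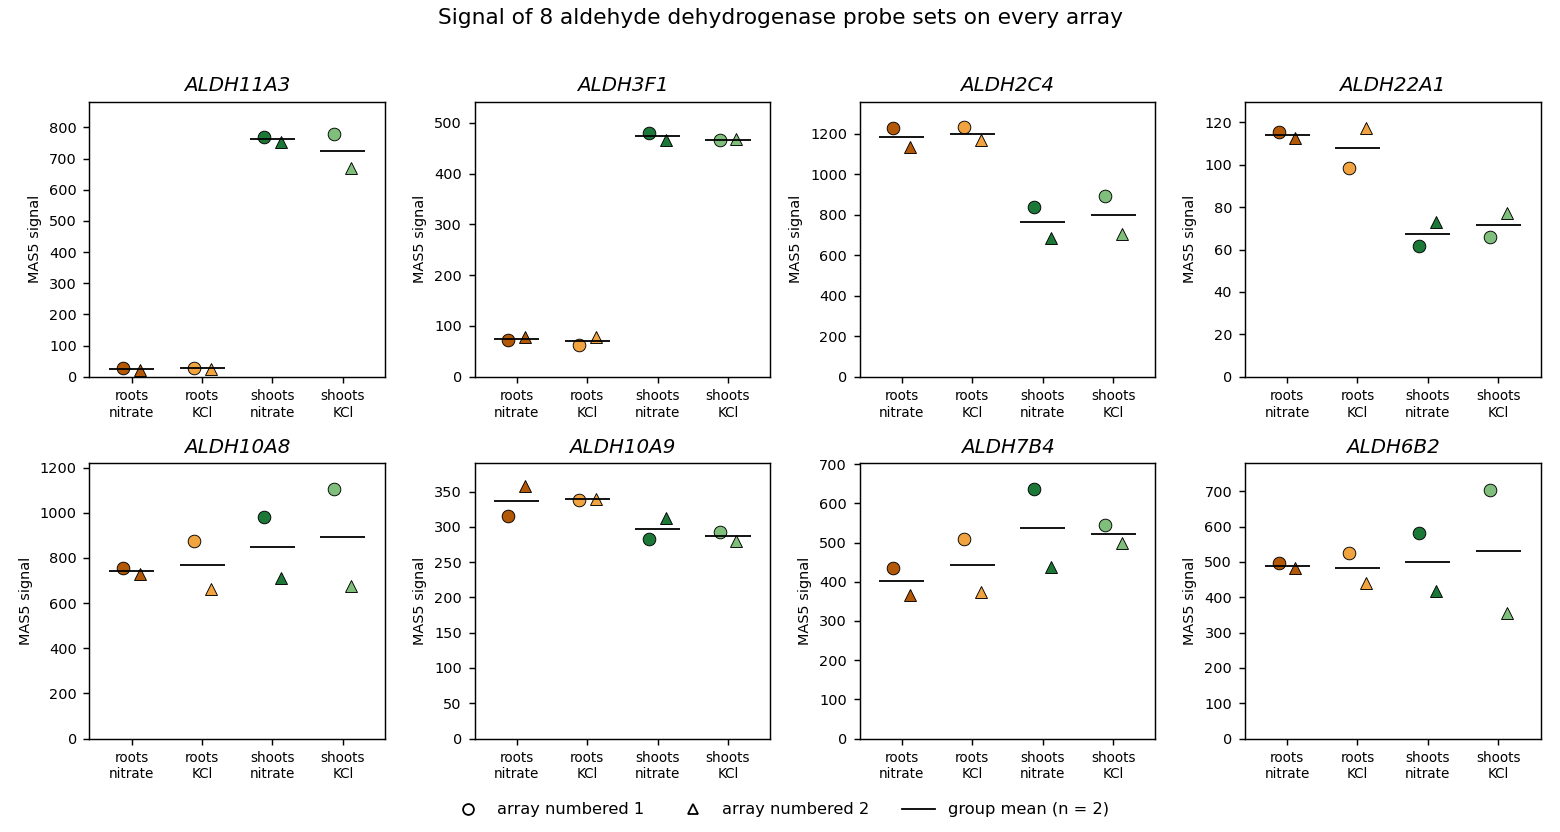
Signal (MAS5, linear scale from 0) of each aldehyde dehydrogenase probe set on every array, by group; circles are arrays numbered 1, triangles those numbered 2, and lines group means (n = 2). Nitrate and KCl arrays overlap in every panel, ALDH11A3 and ALDH3F1 are far lower in roots than in shoots, and ALDH6B2 and ALDH10A8 split by array number in shoots. Levels cannot be compared between panels, since probe sets differ in brightness.

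Nitrate against KCl in roots asks which transcripts respond within minutes to a low dose of nitrate. No aldehyde dehydrogenase passed the test in roots. ALDH7B4 had the largest difference. Its signals were 435 and 367 on the nitrate arrays numbered 1 and 2, against 510.1 and 374 on the KCl arrays in the same order, so the groups overlapped. The mean was 401 ± 47.9 after nitrate and 442 ± 96.1 in KCl (SD, n = 2 each), and the difference was -0.13 ± 0.23 on the log2(signal + 16) scale (SE; limma, adjusted p = 1.0). ALDH11A3, the cytosolic NADPH-forming enzyme, had 27.5 and 20.6 after nitrate against 29.5 and 24.8 in KCl, a log2 difference of -0.11 ± 0.17. These root signals lie below the filter value of 33.3, so this probe set was kept through its shoot arrays and says little about a change in roots.

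The remaining 6 members had smaller differences in roots. ALDH3F1 stood at 71.5 and 79.0 after nitrate against 61.9 and 79.1 in KCl, and ALDH22A1 at 115 and 113 against 98.6 and 117. In both genes the 2 nitrate values fell inside the range of the KCl values. ALDH2C4, of sinapate and ferulate synthesis, had 1231 and 1134 after nitrate against 1232 and 1168 in KCl. ALDH10A8 had 754 and 727 after nitrate against 874 and 663 in KCl, and ALDH10A9 had 315 and 357.5 against 338 and 340.4. ALDH6B2, of valine breakdown, had 497 and 482 after nitrate against 526 and 439 in KCl. The log2 differences of these 6 ran from -0.04 to 0.08.

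By limma, 0 of 8 members passed in roots, and 0 had an unadjusted p under 0.05, where 1.14% of all tested probe sets were called and 769 had an unadjusted p under 0.05. The members' median log2 difference was -0.02, against -0.03 over all tested probe sets, and their median size without sign was 0.06 against 0.12. For 0 of 8 members were the nitrate and KCl arrays apart, where this held for 35% of tested probe sets. The 95% intervals of all 8 lay within a 2-fold change in either direction. The widest was that of ALDH6B2, from -0.66 to 0.72, so that it covers changes of up to 1.64-fold. PGD3, a 6-phosphogluconate dehydrogenase known to respond to nitrate and named here after its values were seen, had 2090 and 1715 after nitrate against 246.5 and 229 in KCl on the same arrays. Its log2 rise was 2.91 ± 0.19 (SE; limma, adjusted p = 0.00043).

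The same question in shoots gave no call either. ALDH11A3 had the largest difference, with signals of 770.2 and 753 after nitrate against 779.8 and 670.1 in KCl. Its mean was 761.6 ± 12.2 after nitrate and 725 ± 77.6 in KCl (SD, n = 2 each), a log2 difference of 0.07 ± 0.17 (SE; limma, adjusted p = 1.0). The groups overlapped, and the spread of the KCl arrays exceeded the difference of the means. ALDH3F1 was the steadiest member in shoots, at 481 and 465.5 after nitrate against 466 and 469 in KCl. Its 4 shoot values lay between 465.5 and 481.

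ALDH22A1 had 61.7 and 72.9 in shoots after nitrate against 65.8 and 77.3 in KCl, and ALDH2C4 had 841 and 686 against 894 and 706. In these 2 genes the nitrate value was below the KCl value for either array number, by less than the gap between the numbers. ALDH10A9 had 282.5 and 313 after nitrate against 293 and 281 in KCl. ALDH10A8 had 979 and 712 against 1106 and 676.5, and ALDH7B4 had 637 and 438 against 544 and 498. ALDH6B2 had 582 and 417 after nitrate against 704 and 356.5 in KCl. For ALDH10A8 and ALDH6B2 the nitrate array lay below the KCl array among those numbered 1 and above it among those numbered 2, and for ALDH7B4 the reverse held.

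By limma, 0 of 8 members passed in shoots and 0 had an unadjusted p under 0.05, where 0.0953% of all tested probe sets were called and 323 had an unadjusted p under 0.05. The members' median log2 difference was -0.00 against -0.01 over all tested probe sets, and the median size was 0.05 against 0.12. All 8 members had a difference smaller in size than the median of all tested probe sets in shoots, and 7 of 8 did in roots. In shoots, too, 0 of 8 members had nitrate and KCl arrays apart (19.9% of tested probe sets). The 95% intervals of all 8 lay within 2-fold, the widest again that of ALDH6B2, from -0.72 to 0.66. They rest on a spread pooled over root and shoot arrays, and shoot pairs differed more, so they may be too narrow in shoots. When the fit was restricted to the 4 shoot arrays, the SE of ALDH6B2 rose from 0.30 to 0.36. Its difference was 0.45 without the shoot KCl array numbered 1 and -0.50 without that numbered 2. The 2-fold bound is thus less certain in shoots than in roots. PGD3 had 940 and 716 after nitrate against 126 and 141 in KCl in shoots and rose by 2.49 ± 0.19 (SE; limma, adjusted p = 0.00303).

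Subtracting the shoot response from the root response asks whether the organs differ in how a transcript responds. By limma, 0 of 8 members passed this test and 0 had an unadjusted p under 0.05, where 0.0147% of tested probe sets were called and 355 had an unadjusted p under 0.05. The largest value was that of ALDH11A3, at -0.19 ± 0.24 on the log2 scale (SE), which rests on the low root signals given above. ALDH22A1 had 0.14 ± 0.25 and ALDH7B4 -0.14 ± 0.32. The intervals were wider here: that of ALDH6B2 ran from -0.92 to 1.03, so that it covers differences between the responses of up to 2.04-fold.

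**Figure D2:**
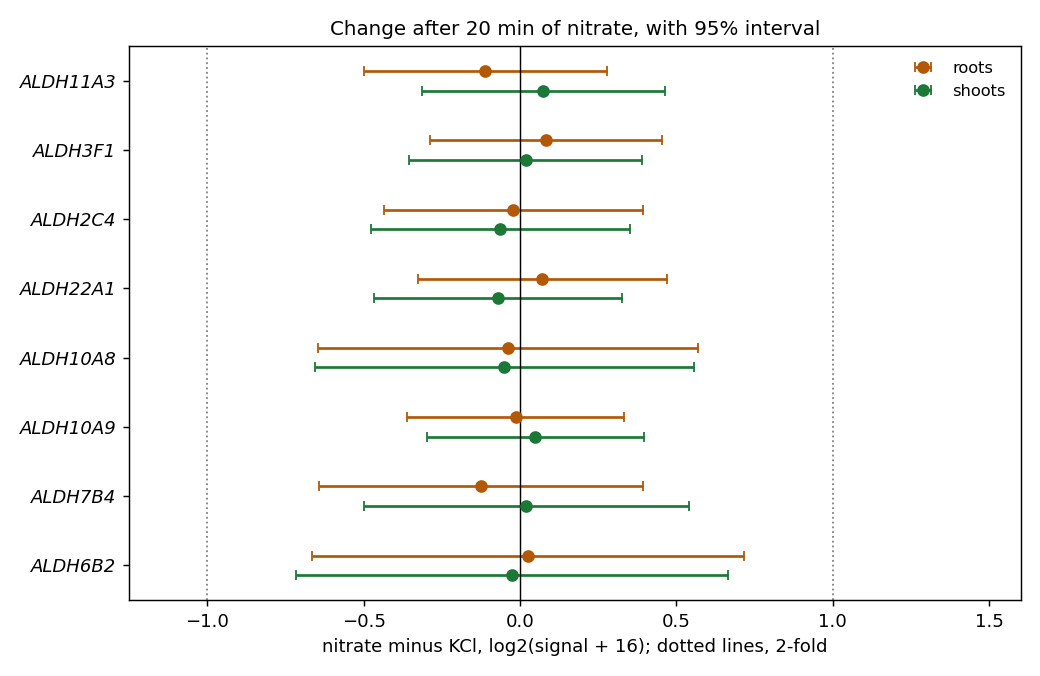
Change with nitrate (nitrate minus KCl, log2(signal + 16)) of each member in roots and in shoots; points are estimates of the limma fit, bars 95% intervals and dotted lines a 2-fold change. All 16 intervals include 0 and stay inside the dotted lines, and ALDH6B2 and ALDH10A8 have the widest ones. The spread is pooled over both organs, so the shoot bars may be too narrow.

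Roots against shoots asks which members differ between the organs without regard to nitrate. ALDH11A3 and ALDH3F1 were much lower in roots, ALDH2C4 was moderately higher in roots, and ALDH22A1 was higher in roots after nitrate and close to the threshold in KCl. ALDH10A8, ALDH10A9, ALDH7B4 and ALDH6B2 did not pass in either condition in this fit, which takes no account of the array number. After nitrate 4 of 8 members were called (2 higher in roots and 2 lower), where 38.2% of all tested probe sets were called, 18.6% higher and 19.6% lower. In KCl 3 of 8 were called (1 higher and 2 lower), where 37.8% were called, 18.6% higher and 19.2% lower. The share of members called was thus near the background. In whole organs, fewer cells that express a gene and less RNA per cell cannot be told apart.

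ALDH11A3 had signals of 20.6 to 29.5 on the 4 root arrays, against 670 to 780 on the 4 shoot arrays. The mean was 24.1 ± 4.90 in roots and 761.6 ± 12.2 in shoots after nitrate, and 27.2 ± 3.33 in roots and 725 ± 77.6 in shoots in KCl (SD, n = 2 each). The organs did not overlap. The root signals lie below the filter value, so the probe set entered the test through its shoot arrays, and no fold is given. The log2(signal + 16) difference was -4.28 ± 0.17 after nitrate (SE; limma, adjusted p = 2.4e-06) and -4.10 ± 0.17 in KCl (adjusted p = 2.8e-06). The size of this difference is set in part by the added constant: in KCl it ran from -4.69 to -3.11 over the alternatives, all of which kept the call.

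ALDH3F1 had 61.9 to 79.1 on the root arrays, against 465.5 to 481 on the shoot arrays. The mean was 75.3 ± 5.34 in roots and 473 ± 11.02 in shoots after nitrate, and 70.5 ± 12.1 in roots and 467 ± 2.15 in shoots in KCl (SD, n = 2 each). The mean signal over both treatments was 6.45-fold higher in shoots, and the organs did not overlap. The log2 difference was -2.42 ± 0.16 after nitrate (SE; limma, adjusted p = 1.06e-05) and -2.49 ± 0.16 in KCl (adjusted p = 1.06e-05). Of all tested probe sets 4.36% were lower after nitrate and 3.9% in KCl. This call also held under all 20 alternatives in either condition.

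ALDH2C4 had 1134 to 1232 on the root arrays, against 686 to 894 on the shoot arrays. Its mean was 1183 ± 68.4 in roots and 763 ± 109.5 in shoots after nitrate, and 1200 ± 45.1 in roots and 800 ± 133 in shoots in KCl (SD, n = 2 each). The signal over both treatments was 1.52-fold higher in roots and the organs did not overlap. The log2 difference was 0.63 ± 0.18 after nitrate (SE; limma, adjusted p = 0.0244) and 0.59 ± 0.18 in KCl (adjusted p = 0.0329). The call after nitrate was lost without the first or the second root nitrate array (adjusted p of 0.145 and 0.0869) or the second shoot nitrate array (0.132). The call in KCl was lost without the first or second root KCl array (0.159 and 0.111), the first or second root nitrate array (0.0636 and 0.0637) or the second shoot KCl array (0.125), while the difference stayed between 0.42 and 0.75. It was also lost with no filter on low signals (0.0535) and with only the 4 arrays of the comparison in the fit (0.0789), and held under 13 of 20 alternatives.

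ALDH22A1 had 98.6 to 117 on the root arrays, against 61.7 to 77.3 on the shoot arrays. After nitrate the mean was 114 ± 1.86 in roots and 67.3 ± 7.90 in shoots, and in KCl 108 ± 13.3 in roots and 71.5 ± 8.18 in shoots (SD, n = 2 each). The signal over both treatments was 1.599-fold higher in roots, again without overlap. The log2 difference was 0.64 ± 0.17 after nitrate (SE; limma, adjusted p = 0.0181) and 0.50 ± 0.17 in KCl (adjusted p = 0.0509). In KCl the difference missed the threshold here and passed under 5 of 20 alternatives. Among these is the setting without the shoot arrays numbered 2, where the spread comes from the root arrays alone. After nitrate the call was lost without the first or the second root nitrate array (adjusted p of 0.0976 and 0.0861) or the first shoot nitrate array (0.0867). These calls do not show that ALDH22A1 differs between organs more after nitrate than in KCl, since the test of that difference, given above, did not pass.

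The pair of ALDH10 genes differed little between organs. ALDH10A9 had 315 to 357.5 on the root arrays against 281 to 313 on the shoot arrays. The organs did not overlap, yet the log2 difference of 0.17 ± 0.15 after nitrate and 0.23 ± 0.15 in KCl did not pass (SE; limma, adjusted p = 0.439 and 0.275). ALDH10A8 had 663 to 874 on the root arrays against 676.5 to 1106 on the shoot arrays, with log2 differences of -0.17 ± 0.26 after nitrate and -0.18 ± 0.26 in KCl (adjusted p = 0.663 and 0.634). ALDH7B4 had 367 to 510.1 in roots against 438 to 637 in shoots, with -0.39 ± 0.23 after nitrate and -0.24 ± 0.23 in KCl (adjusted p = 0.222 and 0.441). With a term for array number within each organ, ALDH7B4 did pass after nitrate (limma, adjusted p = 0.0222). ALDH6B2 had 439 to 526 in roots against 356.5 to 704 in shoots, with -0.01 ± 0.30 and -0.06 ± 0.30 (adjusted p = 0.985 and 0.892). In these last 3 genes the organs overlapped. Over all 8 members, root and shoot arrays were apart for 5 (3 higher in roots and 2 lower), where 50.9% of tested probe sets were (27.1% higher and 23.8% lower).

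**Figure D3:**
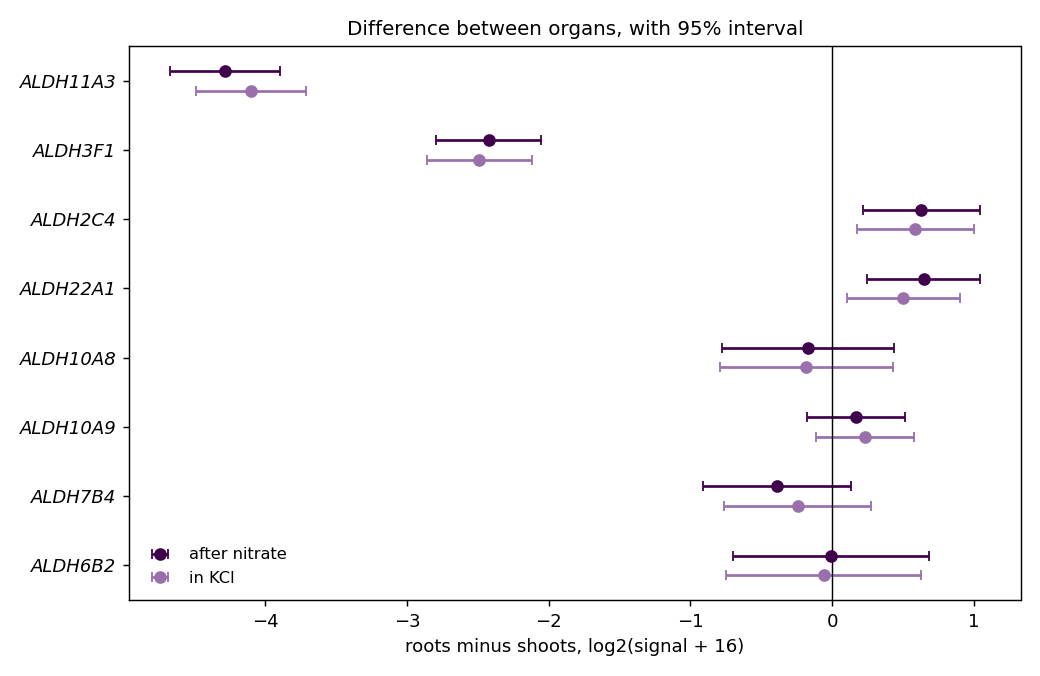
Difference between organs (roots minus shoots, log2(signal + 16)) of each member after nitrate and in KCl, with 95% intervals of the limma fit. ALDH11A3 and ALDH3F1 lie far to the left (lower in roots), ALDH2C4 and ALDH22A1 to the right, and the intervals of the other 4 members include 0.

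ALDH6B2 and ALDH10A8 differed more between the 2 arrays of a shoot group than between treatments or organs. In shoots ALDH6B2 averaged 387 on the arrays numbered 2 and 643 on those numbered 1, and ALDH10A8 averaged 694.5 and 1043 in the same order. On the log2 scale the array numbered 2 minus that numbered 1 was -0.47 after nitrate and -0.95 in KCl for ALDH6B2, and -0.45 and -0.70 for ALDH10A8. Averaged over both treatments, 3.78% of tested probe sets had a more negative value than ALDH6B2 and 6.68% than ALDH10A8. ALDH7B4 had -0.52 and -0.12 in shoots and -0.23 and -0.43 in roots, so it was lower on the array numbered 2 in each of the 4 groups.

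In roots the same gaps were smaller for ALDH6B2, at -0.04 after nitrate and -0.25 in KCl, and for ALDH10A8, at -0.05 and -0.39. ALDH2C4 had -0.29 and -0.33 in shoots and -0.12 and -0.08 in roots. Altogether 5 of 8 members (ALDH2C4, ALDH10A8, ALDH7B4, ALDH6B2 and ALDH11A3) had both arrays numbered 2 below both numbered 1 in shoots and also in roots. Of all tested probe sets 26.8% did so in shoots, 21.9% in roots and 10% in both organs. In shoots 6 of 8 members had the array numbers apart in either direction, where 62.3% of tested probe sets did, and in roots 7 of 8, where 45.3% did. ALDH22A1 ran the other way in shoots, at 0.19 after nitrate and 0.19 in KCl, and ALDH3F1 had -0.05 and 0.01. What the number stands for is not stated, and no test of it was made.

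The gap by number touched the organ comparison. For ALDH6B2 the roots minus shoots difference, averaged over treatments, was 0.25 among the arrays numbered 2 and -0.32 among those numbered 1, so its sign turned. For ALDH10A8 it was 0.00 and -0.35. Without the shoot arrays numbered 2, ALDH6B2 in KCl had -0.54 and ALDH7B4 after nitrate -0.65. Without the shoot arrays numbered 1 they had 0.41 and -0.13. Both settings were chosen after the gap by number was seen. They leave 1 array in each shoot group, so the spread comes from the root arrays alone. Pairs of root arrays differed less than pairs of shoot arrays, as given above, so no p-value is given. The organ difference of ALDH11A3 was -4.23 among the arrays numbered 2 and -4.15 among those numbered 1, that of ALDH3F1 -2.35 and -2.57, that of ALDH2C4 0.71 and 0.50, and that of ALDH22A1 0.52 and 0.62. These 4 kept their direction in both sets of arrays. ICL, given above, differed by number in the same direction as ALDH6B2 and ALDH10A8 in both organs, and its part in their difference was not tested.

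**Figure D4:**
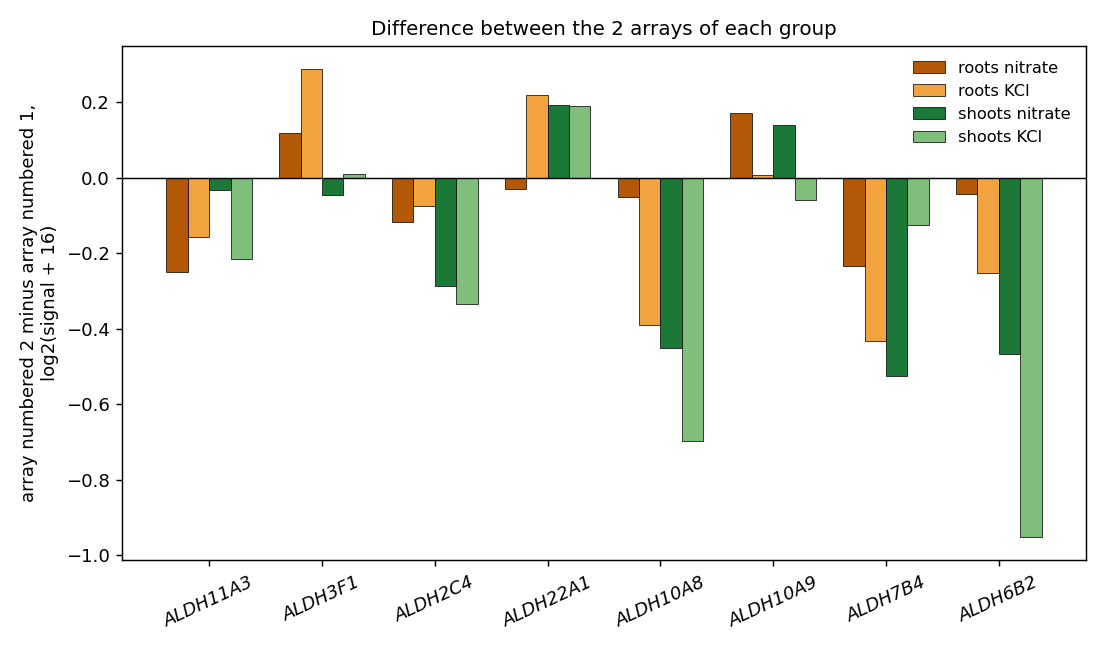
Difference between the 2 arrays of each group (array numbered 2 minus array numbered 1, log2(signal + 16)) for each member. The bars of ALDH6B2, ALDH10A8, ALDH7B4, ALDH2C4 and ALDH11A3 point down in all 4 groups, and the longest is that of ALDH6B2 in KCl shoots at -0.95.

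Genes of the routes that surround these enzymes were taken from lists of 106 genes, of which the probe table names 26 and 23 were tested. With nitrate, 0 of 23 passed by limma in roots or in shoots, and 0 had an unadjusted p under 0.05 in either organ. Around ALDH6B2, in branched-chain amino acid breakdown, the values nearest the threshold were those of ETFBETA (-0.41 ± 0.19) and ETFALPHA (-0.34 ± 0.17) in roots, and of ETFQO (0.34 ± 0.20) and D2HGDH (-0.37 ± 0.22) in shoots (log2, SE). ETFBETA, ETFALPHA and ETFQO encode electron carriers that pass electrons from this breakdown to ubiquinone, while D2HGDH is not a step of the breakdown itself. PDC2, a pyruvate decarboxylase whose product is acetaldehyde, had -0.43 ± 0.22 in roots and -0.22 ± 0.22 in shoots, and AT4G33150, the lysine-degrading LKR/SDH enzyme, had -0.17 ± 0.21 and -0.22 ± 0.21.

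Of the other lists, HCT, a transferase of the phenylpropanoid route, had -0.22 ± 0.17 in roots and 0.08 ± 0.17 in shoots. In glycolysis around ALDH11A3, TPI had 0.19 ± 0.27 and AT1G56190, a phosphoglycerate kinase, 0.18 ± 0.14 in roots, and ENOC had -0.21 ± 0.16 and GAPC2 -0.10 ± 0.24 in shoots. Among amine oxidases, CuAO1 had 0.21 ± 0.20 and AT2G42490 -0.05 ± 0.25 in roots, and AT1G31710 had 0.10 ± 0.20 and CuAO1 -0.09 ± 0.20 in shoots. Of the cold and dehydration proteins, COR15B had 0.20 ± 0.20 and COR47 -0.13 ± 0.25 in roots, and COR47 had -0.16 ± 0.25 and COR15B -0.07 ± 0.20 in shoots.

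Between organs the lists differed. Of 10 tested genes on the list for branched-chain amino acid breakdown, 3 were lower in roots after nitrate and 5 in KCl. Of all tested probe sets 19.6% and 19.2% were lower. On the list 0 were higher, where 18.6% of all tested probe sets were in either condition. The 5 in KCl include D2HGDH (-0.74 ± 0.22, SE), which is not a step of that breakdown. The median log2 difference of the 10 was -0.46 after nitrate and -0.42 in KCl, against 0.08 over all tested probe sets in either condition. MCCB and MCCA, the subunits of methylcrotonyl-CoA carboxylase of leucine breakdown, were lower in roots by both tests. MCCB had 107 and 111 in roots against 242 and 283 in shoots after nitrate, a log2 difference of -1.15 ± 0.15 (SE; limma, adjusted p = 0.000429), and -0.97 ± 0.15 in KCl (adjusted p = 0.00113). MCCA had -0.79 ± 0.17 and -0.9985 ± 0.17 in the same order (adjusted p = 0.00689 and 0.00204). AT4G20930, a 3-hydroxyisobutyrate dehydrogenase that acts just before ALDH6B2 in valine breakdown, had -0.90 ± 0.23 and -1.07 ± 0.23 (adjusted p = 0.0141 and 0.00609). IVD, isovaleryl-CoA dehydrogenase, had -0.64 ± 0.23 after nitrate, which did not pass (adjusted p = 0.0573), and -0.92 ± 0.23 in KCl, which did (adjusted p = 0.0132). ALDH6B2 itself did not differ detectably between organs, as given above, and the difference between its value and theirs was not tested.

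By array number, in shoots 2 of its 10 tested genes, IVD and AT5G09300, had both arrays numbered 2 below both numbered 1, and 2, MCCA and MCCB, had them above. Of all tested probe sets 26.8% were below and 62.3% were apart in either direction. Their median difference by number was 0.02 in shoots, against 0.05 over all tested probe sets and the value of ALDH6B2 given above. IVD, for example, had 79.4 after nitrate and 87.9 in KCl on the shoot arrays numbered 2, against 101 and 141 on those numbered 1.

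HCT was higher in roots, with 1195 and 1156 against 584 and 473 in shoots after nitrate, by 1.14 ± 0.17 (SE; limma, adjusted p = 0.000801), and by 1.43 ± 0.17 in KCl (adjusted p = 0.000223). HCT and ALDH2C4 act at separate steps of phenylpropanoid metabolism, and HCT is the tested gene of a list of 21. CCR2 of that list was in the table but below the filter. In the list around ALDH11A3, 0 of 4 tested genes passed after nitrate and 1 in KCl, AT1G56190, at -0.50 ± 0.14 (adjusted p = 0.0225). Cytosolic GAPC2, the phosphorylating enzyme that shares its substrate with ALDH11A3, had 3086 and 3219 in roots against 3083 and 2384 in shoots after nitrate, and did not pass in either condition.

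Of 3 tested amine oxidases 1 passed, AT1G31710, higher in roots by 1.0001 ± 0.20 after nitrate and 1.13 ± 0.20 in KCl (SE; limma, adjusted p = 0.00402 and 0.00209). It has a second probe set, which ran from 60.2 to 150 in roots against 19.01 to 78.7 in shoots, where the brighter one used here ran from 342 to 470 against 170 to 208. Of 3 tested genes for lysine breakdown and acetaldehyde, ACS, an acetyl-CoA synthetase, was higher in roots by 0.70 ± 0.15 and 0.87 ± 0.15 after nitrate and in KCl (adjusted p = 0.00566 and 0.00176). AT4G33150 was lower in roots, with log2 differences of -0.88 ± 0.21 and -0.94 ± 0.21 (adjusted p = 0.0113 and 0.00844). The 2 tested cold and dehydration genes moved apart: COR47 had 1.12 ± 0.25 and 1.098 ± 0.25 and COR15B had -1.66 ± 0.20 and -1.93 ± 0.20 (adjusted p from 0.000123 to 0.00818). The root signals of COR15B, 13.6 to 22.4 against 83.8 to 117 in shoots, lie below the filter value. COR15B thus entered the test through its shoot arrays, and the size of its difference rests partly on the added constant.

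**Figure D5:**
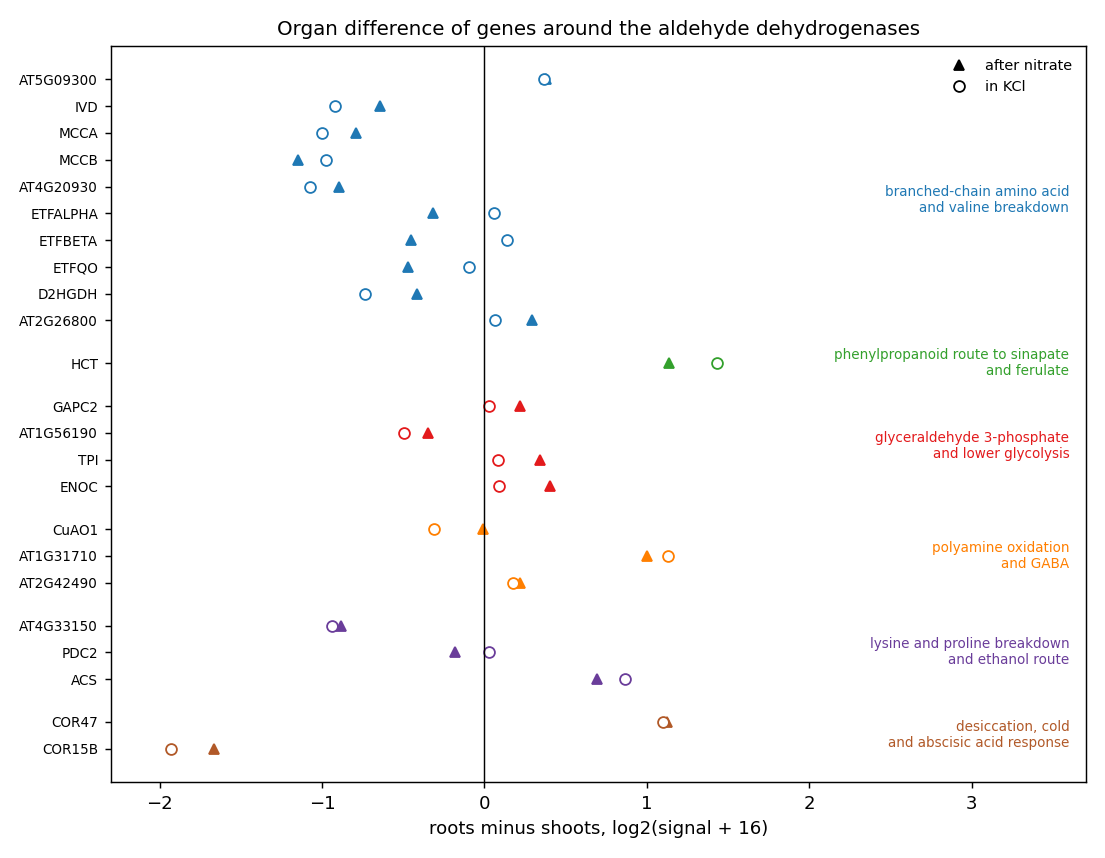
Difference between organs (roots minus shoots, log2(signal + 16)) of the 23 tested list genes, grouped by list, after nitrate (triangles) and in KCl (open circles). Most genes on the list for branched-chain amino acid breakdown lie left of 0, HCT and AT1G31710 near or above 1, and COR47 and COR15B on opposite sides.

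The 2 genes most like each member over the 8 arrays were found among 7245 other tested probe sets of 1 gene, by Pearson's correlation of log2(signal + 16). The arrays share 2 organs and 2 replicate numbers, and the highest of so many values is high by choice, so these are descriptions. ALDH11A3 was followed most closely by AT1G60000 (0.9998), with mean signals of 40.8 in roots and 535 in shoots, and AT5G13140 (0.9997). ALDH3F1 was followed by AT4G16980 (0.9987), with 102 in roots and 1626 in shoots, and AT5G55220 (0.9985). ALDH2C4 was nearest to DJ1D (0.9966) and AT2G20820 (0.9947), and ALDH22A1 to AT5G63710 (0.9914) and AT3G05050 (0.9905). These 4 pairs repeat the organ difference of their member. ALDH10A8 was nearest to AT1G17160 (0.9842) and ICL (0.9798), and ALDH7B4 to AT3G59980 (0.9801) and AT5G47310 (0.9711). ALDH6B2 was nearest to AT2G30105 (0.9718) and CBL (0.9578), and ALDH10A9 to AT5G53340 (0.9724) and AT4G17100 (0.9696).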

How the data were processed

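RNA of roots and shoots was hybridised to 1-colour ATH1 arrays. Per the submitters' processing notes, the deposited intensity values came from MAS5 and GCOS; the sources used here name neither a version nor a scaling target. The mean after trimming the lowest and highest 2% of probe sets was 99.97 on every array, so no further scaling was applied. Detection calls played no part.

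Titles gave each sample's group and number. After removal of 64 control probe sets, those above the 40th percentile of the mean signal (33.3) were kept. Values were tested as log2(signal + 16), which understates changes of low signals. In R 4.3.3, limma 3.58.1 (lmFit, eBayes with a trend) fitted 4 group means on all 8 arrays (4 residual, 4.34 prior degrees of freedom). Two-sided p-values were Benjamini-Hochberg adjusted over all 13647 probe sets, threshold 0.05. The fit was tested on simulated data with noise drawn independently for each array. For nitrate it recovered 36% of 2-fold and 86% of 4-fold changes in roots, and 37% and 90% in shoots. Of the calls, 11 of 133 were false in roots and 5 of 132 in shoots. Most 2-fold changes were thus missed. Figures used matplotlib 3.10.9.

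Genes came from the probe table, updated by identifier to TAIR10.1 records, which gave 1 gene for 13513 probe sets; a list gene with several was represented by the brightest. All members were named; of each list, up to 4 called genes with the smallest p, or otherwise the 2 with the smallest p; and the 2 genes most like each member. PGD3, ICL, PSAN, GAPC2, CCR2, and AT5G09300 were named after their values were seen. Members and lists were chosen with earlier results of these data known. No sequences or coordinates were used here, and cross-hybridisation between relatives was not examined.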

Additional observations from a re-analysis of the deposited data

How the results depend on the processing

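The count of members called with nitrate was 0 in roots and in shoots under all 20 alternatives, and 0 for the difference between organs under all 19. Alternatives were quantile normalization, pseudocounts of 1 and 64, no filter or one at the 60th percentile, the eBayes options, replicate blocks, the 4 arrays of a comparison alone, each array left out and, chosen after seeing the data, both shoot arrays of 1 number left out. These last settings leave 1 array in each shoot group, so their calls rest on the spread of the root arrays alone. They count among the alternatives tallied for each member. Members that did not pass changed sign in 10 of 160 values in roots, 19 of 160 in shoots and 21 of 152 for the difference. Between organs the count was 3 in KCl and ran from 2 to 3 with an array left out, and it was 5 without the shoot arrays numbered 2. After nitrate it was 4, and from 2 to 4 with an array left out, 2 without either root nitrate array. A replicate block, shared or within each organ, changed no nitrate call of a member; it brought ALDH22A1 in KCl past the threshold (limma, adjusted p = 0.0228 shared, 0.0116 within organs) and, within organs, ALDH7B4 after nitrate (0.0222). Samples of the same number deviated together across probe sets (Pearson 0.44 in roots and 0.67 in shoots), but what the number stands for is not stated. The block within organs moved all probe sets called from 155 to 517 in roots and from 13 to 82 in shoots, and calls on all probe sets ranged from 32 to 517 in roots, 1 to 82 in shoots and 0 to 80 for the difference. The 95% intervals given for the members are not adjusted for the number of probe sets, so with 2 samples a group a change larger than an interval covers need not pass the adjusted test. The root signals of ALDH11A3 lie below the filter value.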
